A study of Rattus norvegicus with 8 samples.

Results

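The genes described here code for the alcohol, aldehyde, carbonyl and steroid oxidoreductases of rat liver, enzymes that move hydrogen between NAD(P) cofactors and alcohol or carbonyl groups. They were taken as the genes whose single platform symbol starts with Adh, Aldh, Akr, Cbr, Dhrs, Hsd or Rdh, without Hsd11b1, Hsd17b4 and Hsd17b7. This gave 72 of the 14217 genes with a single symbol on the array, each read at its probe set with the highest mean over 8 arrays.

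RNA came from livers of male Sprague-Dawley rats, an outbred strain, aged 8 weeks. One group drank hydrogen water, a solution of hydrogen gas (0.7 mM), for 4 weeks. The other drank distilled water that had been sterilized. Both groups ate the same commercial chow and drank freely, and the design gives 8 animals per group. Affymetrix arrays were analysed for 4 samples per group, and the labels do not tie an array to an animal, so a p-value here covers array-to-array spread, which may be technical. The question put is which liver transcripts differ after hydrogen water.

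Alcohol dehydrogenases oxidize alcohols to aldehydes, and aldehyde dehydrogenases carry the aldehydes on to acids. Aldo-keto reductases, carbonyl reductases and most short-chain dehydrogenases (the Cbr, Dhrs, Hsd and Rdh families) reduce carbonyl groups or oxidize hydroxyl groups of steroids, retinoids, bile acid precursors and foreign compounds. The liver holds many of these enzymes and uses them to clear ethanol, to make and break retinal and retinoic acid, to build bile acids and to inactivate steroid hormones.

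Values are log2 signals: the deposited intensities were brought to 1 distribution over the arrays (quantile normalization), 2.05 was added, and log2 was taken. All differences are hydrogen water minus control on that scale. A probe set was tested if its mean log2 signal reached the median of all non-control probe sets, 4.42, and 57 of the 72 genes passed this filter. Groups were compared with limma over 15521 probe sets, and a probe set is called where its Benjamini-Hochberg adjusted p is under 0.05. The hydrogen water arrays were dimmer as deposited, with 2% trimmed mean signals of 80.3 to 103, against 94.5 to 132 for controls. Their log2 ratios of 3′ to 5′ Gapdh probe sets ran from 0.27 to 0.46, against 0.14 to 0.34 in controls.

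Most of these genes differed little between hydrogen water and control livers, and 1 passed the test. Akr1c15, an aldo-keto reductase of the AKR1C subfamily, rose 2.00-fold. Of the other 56 tested genes, 0 passed in limma, although 7 of the 57 had an unadjusted p under 0.05, among them Dhrs1, which was 1.60 times the control level, and Akr1c19, which stood at 0.590 of it. The 1 call of 57 is 1.75% of the tested members, against 0.825% of all tested probe sets (0.445% higher and 0.38% lower with hydrogen water). The share with an unadjusted p under 0.05 was 12.3%, against 12.5% of all tested probe sets, so the members lay close to the background. The groups did not overlap at 4 members, Akr1c15, Dhrs1 and Hsd17b12 with hydrogen water above and Akr1c19 with hydrogen water below, which is 7.02% of those tested against 7.48% of all tested probe sets. A difference smaller than 0.2 was found at 43 of the 57 genes, or 75.4%, against 65.4% of all tested probe sets. The median difference was 0.05, with 38 genes above 0 and 19 below, beside a median of 0.00 and 49.7% above 0 over all tested probe sets. Without normalization the median of the members was −0.26 and that of all tested probe sets −0.33, and in each of the 6 scalings tried the members' median lay above that of all tested probe sets. In whole liver, fewer cells of a type and less RNA per cell cannot be told apart.

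**Figure D1:**
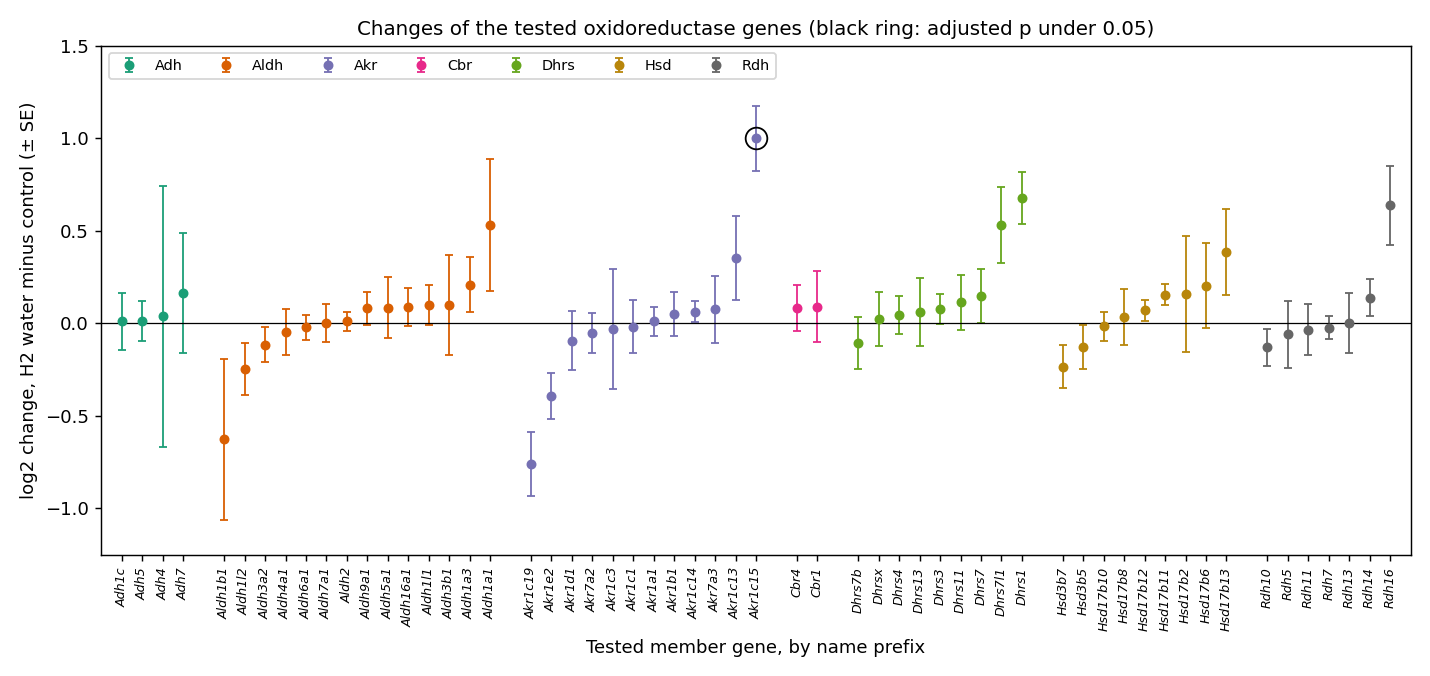
Difference in log2 signal between hydrogen water and control (y axis) for the 57 tested genes, grouped by name prefix and ordered by size within a group. Points are differences and bars are SE from limma, and the ringed point, Akr1c15 at 1.00, is the 1 gene with an adjusted p under 0.05.

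Akr1c15 gave log2 signals of 7.06, 6.83, 7.04 and 6.56 on the hydrogen water arrays, against 5.58, 5.64, 6.11 and 6.17 on the control arrays. Every hydrogen water array lay above every control array. The group means were 6.87 ± 0.23 and 5.87 ± 0.31 (SD, n = 4 each), a difference of 1.00 ± 0.18 (SE; limma adjusted p = 0.0278). The separation was already present in the signals as deposited, 98.8, 106, 104 and 91.2 with hydrogen water against 59.7, 43.3, 84.5 and 72.2 in controls. Akr1c15 missed the threshold without hydrogen water array 1 (adjusted p = 0.0926) or array 3 (0.0935), and without control array 1 (0.0696) or array 2 (0.087), which leaves 0 members called in each of these fits. It also missed it without normalization (0.64, adjusted p = 0.0929), without the trend in the prior (0.0595) and with array brightness as a covariate (0.89, adjusted p = 0.225).

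The region around the start of Akr1c15 is shown with those of Akr1c19, the gene of the same cluster with the largest difference in the opposite direction, and of Dhrs1, because these are the 3 genes with the smallest p of the 57. The sequences are from RefSeq, rat build GRCr8, read 5′ to 3′ on the gene's strand, from 250 bases before the start to 50 after it. Capitals mark matches to any of the motifs TGACNNNGC (core of the antioxidant response element), AGAACA (half-site of the glucocorticoid receptor), CACGTG (E-box), TTCNNNGAA (STAT element) and TATAAA (the box bound by the TATA-binding protein), searched on both strands.
Akr1c15, minus strand, chr17:71117908-71118207: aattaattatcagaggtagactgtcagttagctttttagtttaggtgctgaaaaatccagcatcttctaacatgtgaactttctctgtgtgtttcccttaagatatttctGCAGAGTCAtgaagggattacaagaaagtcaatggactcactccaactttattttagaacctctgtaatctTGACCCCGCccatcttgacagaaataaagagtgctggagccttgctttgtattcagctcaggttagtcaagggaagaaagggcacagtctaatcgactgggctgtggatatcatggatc
Akr1c19, plus strand, chr17:70913666-70913965: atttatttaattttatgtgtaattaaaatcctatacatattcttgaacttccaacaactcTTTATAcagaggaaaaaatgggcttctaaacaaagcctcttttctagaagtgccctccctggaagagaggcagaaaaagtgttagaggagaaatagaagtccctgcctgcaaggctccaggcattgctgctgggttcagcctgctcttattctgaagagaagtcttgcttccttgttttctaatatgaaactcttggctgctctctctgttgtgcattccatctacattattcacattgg
Dhrs1, minus strand, chr15:33213685-33213984: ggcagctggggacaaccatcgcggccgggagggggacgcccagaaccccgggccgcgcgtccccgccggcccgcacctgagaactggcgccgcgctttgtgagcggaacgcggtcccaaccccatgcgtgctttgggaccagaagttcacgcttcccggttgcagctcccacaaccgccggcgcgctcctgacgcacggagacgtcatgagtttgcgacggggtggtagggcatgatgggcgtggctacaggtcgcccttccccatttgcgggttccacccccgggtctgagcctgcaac
The Akr1c15 window holds 2 matches to TGACNNNGC, at bases 111 to 119 on the opposite strand and 182 to 190 on the gene's strand, counted from 1 at the 5′ end. At least 1 such match was found in 12.2% of 27457 rat promoter windows of the same length and in 8 of the 56 member genes with a window, or 14.3%. The Akr1c19 window holds 1 match to TATAAA, which 14.3% of all windows hold, and the Dhrs1 window holds none of the letters searched. AGAACA occurs in 20.1% of all windows, CACGTG in 6.65% and TTCNNNGAA in 8.68%, with no overlap between the matches capitalized here. The Akr1c15 and Akr1c19 windows are 40.7% and 39.3% G or C, and the Dhrs1 window is 69.3%, beside a median of 52.3% over all windows. A match is only a run of letters, and nothing in these data bears on whether a factor binds there.

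Akr1c15 and 6 other aldo-keto reductase genes of the list follow one another along rat chromosome 17, in the order Akr1e2, Akr1c1, Akr1c13, Akr1c19, Akr1c3, Akr1c14 and Akr1c15. Differences within this group ran from −0.76 to 1.00. Akr1c19 had log2 signals of 6.58, 6.89, 7.00 and 6.81 with hydrogen water, against 7.25, 7.83, 7.29 and 7.94 in controls. Every hydrogen water array lay below every control array, and the difference of −0.76 ± 0.17 (SE) did not pass (adjusted p = 0.0737). It passed in 2 of 22 alternative fits, without normalization (limma adjusted p = 0.00375) and with median centring (0.0354). In these the median difference of all tested probe sets was −0.33 and −0.07. The adjusted p reached 0.184 in the others.

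Akr1e2, which reduces 1,5-anhydrofructose, had log2 signals of 9.56, 9.78, 9.24 and 9.23 with hydrogen water and 9.98, 9.71, 9.84 and 9.84 in controls. Hydrogen water array 2 lay among the controls, and the difference of −0.39 ± 0.13 (SE; adjusted p = 0.209) passed only without normalization (adjusted p = 0.049). Akr1c14, the 3α-hydroxysteroid dehydrogenase of rat liver, differed by 0.06 ± 0.06, at 11.96, 11.91, 11.80 and 11.88 with hydrogen water against 11.81, 11.77, 11.84 and 11.88 in controls. Its other 2 probe sets differed by 0.07 and 0.01. Akr1c13 differed by 0.35 ± 0.23, with control array 2 far below the rest at 9.85, and without that array the difference was 0.09. Akr1c1 and Akr1c3 differed by −0.02 ± 0.14 and −0.03 ± 0.32. The genes of this subfamily are alike in sequence, and how far each probe set separates them was not tested.

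**Figure D2:**
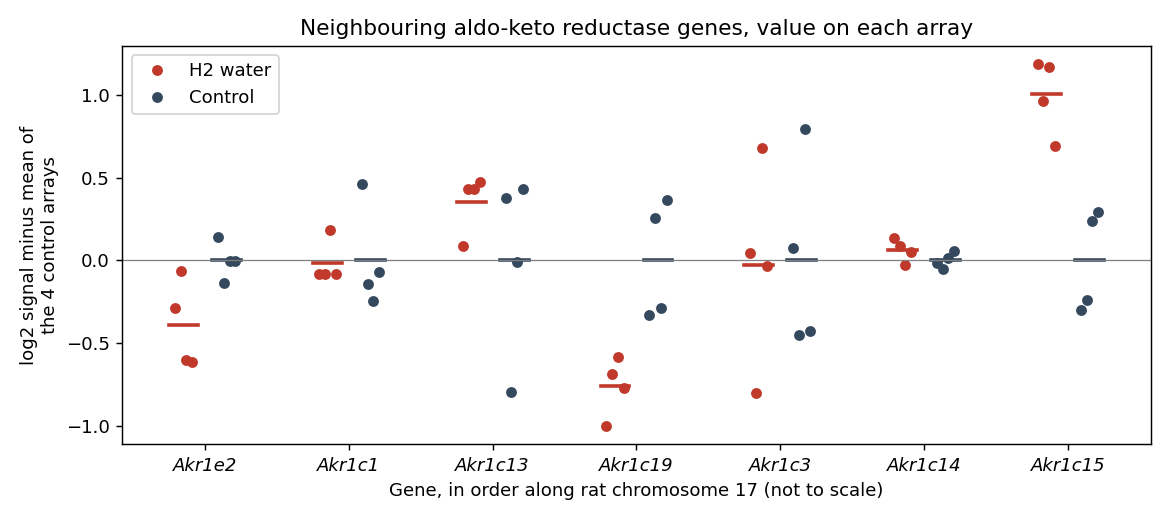
Log2 signal on each array minus the mean of the 4 control arrays (y axis) for the 7 aldo-keto reductase genes that lie in this order on chromosome 17 (x axis), hydrogen water left and control right, with bars at the group means. Akr1c15 stands 1.00 above and Akr1c19 0.76 below the control mean, while Akr1c1, Akr1c3 and Akr1c14 overlap around 0.

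Of the 15 Akr genes 12 were tested, 1 rose, 0 fell and 11 did not pass. The 1 call is 8.33% of those tested, against 0.825% of all tested probe sets. An unadjusted p under 0.05 was reached by 3 (25%, against 12.5% of all tested probe sets). Akr1a1, the general aldehyde reductase, and Akr1b1, aldose reductase of the polyol pathway, differed by 0.01 ± 0.08 and 0.05 ± 0.12 (SE). Akr1d1 is the 5β-reductase that shapes the A/B ring junction of bile acids and steroids. It had log2 signals of 10.67, 10.55, 10.47 and 10.64 with hydrogen water and 10.77, 10.92, 10.93 and 10.09 in controls, a difference of −0.09 ± 0.16 in which control array 4 lay below all others. A second Akr1d1 probe set differed by 0.10 ± 0.30, in the opposite direction. Akr7a2 and Akr7a3, reductases of succinic semialdehyde and of aflatoxin dialdehyde, differed by −0.05 ± 0.11 and 0.08 ± 0.18. Akr1b7, Akr1b8 and Akr1b10 lay below the filter.

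Among the Dhrs genes, named as short-chain dehydrogenase/reductase members, Dhrs1 was higher on every hydrogen water array. Its log2 signals were 9.15, 8.96, 9.04 and 8.47 with hydrogen water, against 8.21, 8.07, 8.37 and 8.25 in controls. The groups did not overlap, with hydrogen water array 4 closest to the controls, and the difference of 0.68 ± 0.14 (SE) missed the threshold (adjusted p = 0.0572). It passed in 2 of 22 alternative fits. These were without hydrogen water array 4 (limma adjusted p = 0.0205) and with scaling by the spike-in probe sets (0.0207). The adjusted p reached 0.313 in the others. In the signals as deposited the Dhrs1 groups overlapped, at 353 to 471 with hydrogen water and 246 to 425 in controls. Dhrs7l1 differed by 0.53 ± 0.21 (adjusted p = 0.312), from 11.90, 11.29, 11.50 and 11.08 with hydrogen water against 11.19, 10.39, 10.77 and 11.28 in controls, and the groups overlapped. Dhrs7 differed by 0.15 ± 0.15. Dhrs3, which returns retinal to retinol, and Dhrs4, a peroxisomal NADPH-dependent reductase of carbonyl compounds, differed by 0.08 ± 0.08 and 0.05 ± 0.10. Of 11 Dhrs genes 9 were tested and limma called 0. An unadjusted p under 0.05 was reached by 2 (22.2%, against 12.5% of all tested probe sets).

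**Figure D3:**
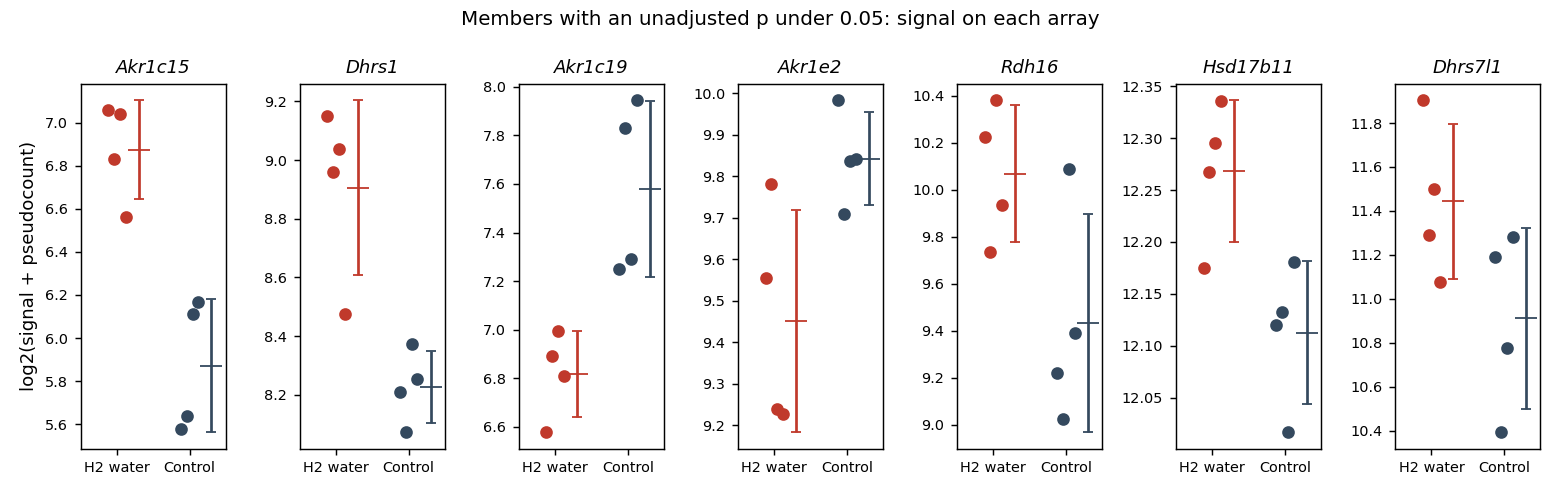
Log2 signal on each array (points) for the 7 genes with an unadjusted p under 0.05, hydrogen water left and control right in each panel, with the mean and SD beside the points. The groups are apart for Akr1c15, Dhrs1 and Akr1c19 and overlap for the other 4; the y axes differ between panels and do not start at 0.

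Retinol dehydrogenases start the conversion of vitamin A to retinoic acid. Rdh16, a microsomal retinol dehydrogenase of rodent liver, had log2 signals of 10.23, 9.73, 10.38 and 9.93 with hydrogen water and 9.22, 9.02, 10.09 and 9.39 in controls. Control array 3 lay inside the hydrogen water range, and the difference of 0.64 ± 0.21 (SE) did not pass (adjusted p = 0.225). Without control array 3 it was 0.86 and passed (limma adjusted p = 0.0273), and it passed with the replicate numbers as a block (0.0436). Those were 2 of 22 alternative fits, and the adjusted p reached 0.431 in the others. Rdh7, a related microsomal enzyme, differed by −0.02 ± 0.06, at 11.47, 11.56, 11.50 and 11.46 with hydrogen water and 11.60, 11.41, 11.50 and 11.57 in controls. Rdh10, which makes retinal for retinoic acid synthesis in the embryo, differed by −0.13 ± 0.10 and Rdh14 by 0.14 ± 0.10. Rdh5, Rdh11 and Rdh13 differed by −0.06 ± 0.18, −0.04 ± 0.14 and 0.00 ± 0.16. Of 8 Rdh genes 7 were tested and limma called 0. An unadjusted p under 0.05 was reached by 1 (14.3%, against 12.5% of all tested probe sets).

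The aldehyde dehydrogenases were the largest group, with 17 genes. Of the 14 tested, 0 passed in limma, and an unadjusted p under 0.05 was reached by 0 (against 12.5% of all tested probe sets). Aldh2, the mitochondrial enzyme that oxidizes acetaldehyde, varied little, at 12.00, 12.01, 11.97 and 12.01 with hydrogen water and 11.97, 12.04, 11.93 and 12.01 in controls. The difference was 0.01 ± 0.05 (SE), and 99.8% of all tested probe sets had a larger pooled SD. Aldh1a1, which oxidizes retinal to retinoic acid, had log2 signals of 9.26, 9.98, 8.04 and 9.43 with hydrogen water and 8.96, 9.03, 8.03 and 8.56 in controls. The groups overlapped widely, and the difference of 0.53 ± 0.36 did not pass (adjusted p = 0.611). Leaving out array 2 or array 3 of the hydrogen water group gave 0.27 and 0.91, and leaving out control array 3 gave 0.33. Aldh1a3, which shares this reaction, differed by 0.21 ± 0.15.

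Aldh1l1 and Aldh1l2, the cytosolic and mitochondrial 10-formyltetrahydrofolate dehydrogenases, differed by 0.10 ± 0.11 and −0.25 ± 0.14. Aldh1b1, a second mitochondrial acetaldehyde dehydrogenase, differed by −0.63 ± 0.44, with log2 signals of 3.89, 5.22, 4.93 and 4.77 with hydrogen water and 4.62, 5.06, 6.72 and 4.91 in controls. Control array 3 stood above all others, and without it the difference was −0.16. Aldh3a2, which oxidizes long-chain fatty aldehydes, differed by −0.12 ± 0.10. The enzymes of amino acid and carnitine pathways had small differences: Aldh4a1 of proline breakdown at −0.05 ± 0.12, Aldh5a1 of GABA breakdown at 0.08 ± 0.16, Aldh6a1 of valine breakdown at −0.02 ± 0.07, Aldh7a1 of lysine breakdown at 0.00 ± 0.10 and Aldh9a1 of carnitine synthesis at 0.08 ± 0.09.

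Alcohol dehydrogenase genes varied more between arrays of a group than between groups. Adh4, the class II enzyme of liver, had log2 signals of 8.78, 6.56, 5.99 and 8.89 with hydrogen water and 9.04, 6.60, 7.83 and 6.62 in controls. High and low arrays occurred in both groups, the pooled SD within groups was 1.34, and 0.232% of all tested probe sets had a larger one. The difference between groups was 0.04 ± 0.71 (SE). Adh1c, the class I enzyme that oxidizes most ethanol, had log2 signals of 12.85, 12.53, 12.16 and 12.74 with hydrogen water and 12.92, 12.30, 12.57 and 12.46 in controls, a difference of 0.01 ± 0.15. The 4 arrays with the highest Adh4 signal, hydrogen water 1 and 4 and control 1 and 3, also had the highest Adh1c signal, at both of its probe sets. Adh5, which oxidizes the glutathione adduct of formaldehyde, differed by 0.01 ± 0.11, and Adh7, known from stomach, by 0.16 ± 0.32. The Adh5 signal was also highest on hydrogen water 1 and 4 and control 1 and 3. Its control 1, at 10.04, lay just above control 4, at 10.03. Adh7 did not share this order, reading lowest of all 8 on hydrogen water array 1, at 3.90. Of 5 Adh genes 4 were tested. In limma 0 passed, and 0 reached an unadjusted p under 0.05.

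**Figure D4:**
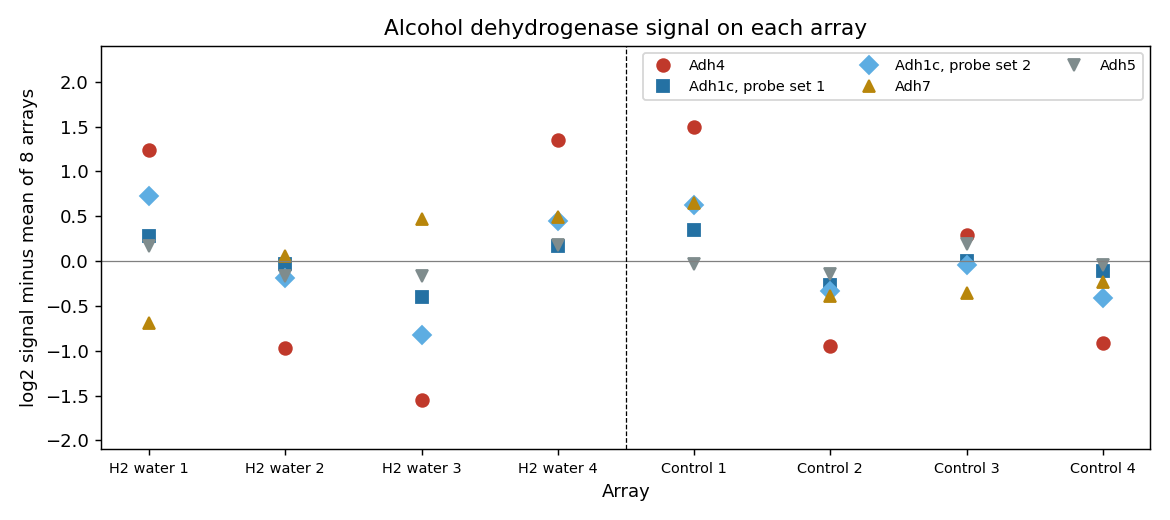
Log2 signal minus the mean of the 8 arrays (y axis) for the 4 tested alcohol dehydrogenase genes on each array (x axis), with both probe sets of Adh1c, hydrogen water left of the dashed line. Adh4, Adh5 and both Adh1c probe sets are highest on hydrogen water arrays 1 and 4 and control arrays 1 and 3.

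Both tested carbonyl reductases had small differences. Cbr1, the cytosolic reductase of quinones, prostaglandins and xenobiotic ketones, differed by 0.09 ± 0.19, and Cbr4, a mitochondrial subunit of fatty acid synthesis, by 0.08 ± 0.13. Hsd17b8, the partner subunit of Cbr4, differed by 0.04 ± 0.15. Cbr3 lay below the filter, and of the 2 tested Cbr genes 0 were called by limma, nor was either under an unadjusted p of 0.05.

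Hydroxysteroid dehydrogenases comprised 13 genes, of which 9 were tested. Of these, limma called 0, and 1 (11.1%, against 12.5% of all tested probe sets) reached an unadjusted p under 0.05. Hsd17b11 and Hsd17b13, paralogues whose proteins sit on lipid droplets, lie next to each other in the gene order of the list on chromosome 14. Hsd17b11 had log2 signals of 12.18, 12.27, 12.30 and 12.34 with hydrogen water and 12.12, 12.13, 12.02 and 12.18 in controls. The lowest hydrogen water array lay just below the highest control, and the difference was 0.16 ± 0.06 (SE; adjusted p = 0.288). Hsd17b13 had 9.25, 8.81, 9.58 and 9.38 against 8.62, 8.52, 9.61 and 8.72 in controls, a difference of 0.39 ± 0.23 (adjusted p = 0.558) with control array 3 the highest of all 8.

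Hsd17b12, the ketoacyl-CoA reductase of fatty acid elongation, did not overlap between groups although it differed by only 0.07 ± 0.06. It was at 10.74, 10.74, 10.74 and 10.71 with hydrogen water and 10.68, 10.70, 10.61 and 10.66 in controls. In the signals as deposited its groups overlapped, at 1360 to 1702 with hydrogen water and 1498 to 2023 in controls. Without normalization its difference was −0.21. Hsd3b7, which acts early in bile acid synthesis, differed by −0.23 ± 0.12 (adjusted p = 0.45), from 10.09, 10.28, 10.40 and 10.20 with hydrogen water against 10.47, 10.51, 10.18 and 10.76 in controls. Control array 3 again lay on the other side of its group. Hsd17b2, which inactivates oestradiol and testosterone, and Hsd17b6, an oxidative 3α-hydroxysteroid dehydrogenase, differed by 0.16 ± 0.31 and 0.20 ± 0.23. Hsd17b10, a mitochondrial enzyme of isoleucine breakdown, differed by −0.01 ± 0.08, and Hsd3b5 by −0.13 ± 0.12.

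The 15 genes below the filter had mean log2 signals of 1.86 to 4.37, against 4.44 for the dimmest tested member, and without detection calls such signals cannot be set apart from background. They were Adh6a, Akr1b7, Akr1b8, Akr1b10, Aldh1a2, Aldh3a1, Aldh18a1, Cbr3, Dhrs7c, Dhrs9, Hsd3b1, Hsd11b2, Hsd17b1, Hsd17b3 and Rdh12. Several are known chiefly from other organs, such as Hsd17b3 in testis, Hsd11b2 in kidney and Hsd3b1 in steroid-producing glands. With no filter, limma called 0 of the 15, while 2 reached an unadjusted p under 0.05. Hsd17b3 averaged 3.81 ± 0.40 with hydrogen water and 2.26 ± 0.73 in controls (SD, n = 4 each; adjusted p = 0.22), and Aldh3a1, inducible by aryl hydrocarbons, averaged 3.06 ± 0.46 and 1.94 ± 0.63 (SD, n = 4 each; adjusted p = 0.443).

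Further probe sets were present for 11 of the 72 genes. Of these 13 probe sets 8 were tested, limma called 0 (0 at an unadjusted p under 0.05), and 5 differed in the same direction as the probe set given. Akr1c15, Akr1c19 and Dhrs1 were each read by 1 probe set only, so that their differences have no check by a second.

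Genes that work beside these enzymes were read from 4 lists, of which limma called 0 genes. Of 23 tested oxidoreductases outside the name prefixes, 5 (21.7%) had an unadjusted p under 0.05, against 12.5% of all tested probe sets. The median difference was −0.06. The groups did not overlap at 3 (13.0%), against 7.48% of all tested probe sets. The 5 are named here after their values were seen. Sord, which oxidizes sorbitol, differed by −0.22 ± 0.06 (SE; adjusted p = 0.117) and Pecr, a peroxisomal enoyl-CoA reductase, by −0.13 ± 0.05, both with every hydrogen water array below every control. Por, the electron donor of cytochrome P450 enzymes, differed by 0.66 ± 0.27 with every hydrogen water array above, Kdsr of sphingolipid synthesis by 0.63 ± 0.22 and H6pd, which supplies NADPH inside the endoplasmic reticulum, by 0.30 ± 0.12.

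Of 17 measured genes of retinoid handling 10 were tested, and the groups did not overlap at 1 of these (10%, against 7.48% of all tested probe sets). The median difference was 0.02. An unadjusted p under 0.05 was reached by 2 (20%, against 12.5% of all tested probe sets). They were the retinoid X receptor Rxra, at 0.39 ± 0.12 and without overlap between groups, and lipoprotein lipase Lpl, at 0.49 ± 0.18. Of 16 measured genes of steroid synthesis, action and inactivation 10 were tested, with a median of −0.13. An unadjusted p under 0.05 was reached by 4 (40%, against 12.5% of all tested probe sets). These were the 17α-hydroxylase Cyp17a1 at −0.80 ± 0.23, the glucocorticoid receptor Nr3c1 at −0.32 ± 0.12, oestrogen sulfotransferase Sult1e1 at −0.17 ± 0.07 and H6pd, which stands in both lists. Of 5 tested genes of ethanol and acetate handling 1 (20%) had an unadjusted p under 0.05, and the median was −0.05. It was Acss2, an acetyl-CoA synthetase, at 0.39 ± 0.17. The lists are small, and their shares were not tested against that of all tested probe sets.

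Of 10 listed hepatocyte markers 8 were measured and all 8 passed the filter, with mean log2 signals over the list of 12.75 to 12.90 with hydrogen water and 12.69 to 12.88 in controls. Both measured adrenal cortex markers lay below the filter. Over 10 marker lists, limma called 0 of 36 tested entries, and 2 reached an unadjusted p under 0.05, the sinusoidal endothelial markers Lyve1 at 0.38 ± 0.13 and Stab2 at 0.42 ± 0.13. Of the other endothelial markers, Eng differed by 0.07, Pecam1 by −0.04, Kdr by −0.10 and Vwf by −0.16, and the median of the list was 0.01. The mean over the 6 tested endothelial markers ran from 7.60 to 7.91 with hydrogen water and from 7.57 to 7.72 in controls, and its part in the differences above was not tested.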

How the data were processed

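Biotin-labelled RNA was hybridized to Affymetrix rat arrays, and the deposited values are intensities on a linear scale that the authors made with MAS5, per the submitters' processing notes. For the MAS5 version and scaling target, the sources used here give nothing, and no detection calls were used. The arrays had no common scale, with medians of 17.2 to 26.8. The 57 control probe sets were removed, the other 31042 were quantile-normalized, and 2.05, 10% of the overall median of 20.5, served as pseudocount for log2, which understates changes of dim probe sets and hides a shift common to most transcripts. The brighter 50% by mean log2 signal were tested in R 4.3.3 with limma 3.58.1 (lmFit, then eBayes with an intensity trend), using Benjamini-Hochberg adjustment over all 15521 tested probe sets.

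Symbols came from the platform annotation, and all 72 genes matched a RefSeq entry of GRCr8 by Entrez ID with the same symbol. Another 2 probe sets that carry several symbols, the first of them with a prefix of these families, were left out. The genes named are those past the threshold, up to 4 per prefix in order of p, and a fixed set of well-known enzymes, 37 in all. The others are given for completeness. The members and lists were chosen with earlier results of these data known. The fit was tested on simulated data for 15521 probe sets and found 35.8% of planted 1.5-fold, 70.3% of 2-fold and 90.6% of 3-fold changes, with 5.07% of calls false. The simulated noise was independent for each probe set, with no array effects and no normalization step. These shares therefore do not cover arrays whose brightness differs between groups, as it did here. The alternatives tried were other normalizations, pseudocounts, filters and priors, array weights, a replicate block, array brightness as a covariate, the mean of a gene's probe sets, a threshold of 0.10 and leaving out each array. The number of arrays limits the precision.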

Additional observations from a re-analysis of the deposited data

Results flagged for a closer look

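Within groups of 4 arrays, 1 array stood far from the other 3 in 5 of the 114 checks over the tested members, where chance flags about 1 in 20. Adh7 read 5.24 on control array 1, against 4.20 to 4.37 on the other controls. Akr1c1 read 9.98 on hydrogen water array 3, against 9.71 to 9.72 on the others of its group. Akr1c13 read 10.73 on hydrogen water array 1, against 11.07 to 11.11. Hsd17b12 read 10.71 on hydrogen water array 4, against 10.74 on the others, and Rdh13 read 4.94 on hydrogen water array 4, against 4.89 on the others, both gaps being small on the log2 scale.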

How the results depend on the processing

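With the main settings 128 probe sets and 1 member were called, and 4 members did not overlap between groups. Without normalization 505 probe sets and 2 members (Akr1c19, Akr1e2) were called. Median centring called 187 probe sets and 2 members (Akr1c15, Akr1c19). It left 2 members without overlap, 3.51% of those tested against 7.63% of all tested probe sets. Spike-in scaling called 144 probe sets and 2 members (Akr1c15, Dhrs1). The share of calls that were higher with hydrogen water was 4.16% without normalization, 29.4% with median centring, 70.8% with spike-in scaling and 16.7% with array brightness as a covariate, against 53.9%. Without the trend in the prior 64 probe sets and 0 members were called, with array brightness as a covariate 12 and 0. At a threshold of 0.10, 353 probe sets and 3 members were called. With the dimmest 75% left out, 91 probe sets and 0 members were called, Akr1c15 then being untested. Leaving out each array in turn gave 55 to 197 called probe sets, 0 to 2 called members and 4 to 8 members without overlap. The last are 7.02% to 14.0% of the members tested, against 10.25% to 12.22% of all tested probe sets. Groups of fewer arrays overlap less often. The labels do not say whether equal replicate numbers pair the arrays. Same-numbered arrays' deviations from their group means correlated at −0.10, 0.04, 0.19 and 0.00, and not every array correlated best with its own number. The 0.19, between the arrays numbered 3, was the highest of all pairs across the groups. With the replicate block 181 probe sets and 2 members (Akr1c15, Rdh16) were called. Among the 37 named members, 12 kept the sign of their difference in all alternative fits and 25 changed it in 1 or more. The cause of these changes was not tested. The 4 arrays per group, the missing detection calls and the unknown scaling limit what dim members can show.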

Other observations

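Several members with a wide spread were alike on hydrogen water array 3 and control array 3, which share only a replicate number in the labels. Aldh1a1 was lowest in its group on both, at 8.04 and 8.03, and so was Hsd17b2, at 7.84 and 7.50. Akr1c3 was highest in its group on both, at 7.88 and 8.00. Rdh16 was also highest in its group on both, at 10.38 and 10.09, and so was Hsd17b13, at 9.58 and 9.61. These genes were picked after their values were seen, and not every member with a wide spread showed this. Adh4 had a larger pooled SD, 1.34, and was lowest in its group on hydrogen water array 3, at 5.99. On control array 3 it read 7.83, above control arrays 2 and 4, at 6.60 and 6.62.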
